A study of Mus musculus with 48 samples.

Results

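The collagen genes are the 44 genes with a single symbol of the form Col, number, a, number among 22180 gene symbols measured on arrays of whole tissue from the mouse junction of oesophagus and stomach. Where a symbol had several probe sets the brightest was used, and 35 of the 44 exceeded the array's median signal in 3 or more arrays and were tested among 15242 genes. The 44 were 11 genes of fibrillar chains, 8 of basement membrane chains (types IV, XV and XVIII), 2 of collagens made by epithelia (Col7a1 and Col17a1), 9 fibril-associated, 6 of the beaded filament type VI, 3 short chain, 3 transmembrane and 2 others. The 9 not tested were Col11a1, Col4a4, Col9a1, Col9a3, Col19a1, Col22a1, Col6a6, Col10a1 and Col28a1, whose signals lay near the bottom of the scale in nearly every array.

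The study asked how diet, interleukin-8, Notch signalling and FXR, a receptor for bile acids, act in a mouse model of Barrett oesophagus, in which columnar cells replace the squamous lining. The model, written pl2 or pL2 in the labels, is an interleukin-1 beta transgene known to be active in squamous epithelium of the upper gut. There were 48 arrays in 16 groups of 3. WT and pl2 mice of 12 months on chow came from each of the facilities MRI and Freising, and both genotypes on a high fat diet (HFD) of the same age came from Freising. All other groups were kept on chow at MRI: the line labelled FXR and the cross pl2_FXR at 12 months, and pl2_IL8 at 9 and at 12 months. The last 6 groups carried pL2 with an Lgr5 or a Dclk driver and Notch1fl_fl, Notch2fl_fl or Notch2IC_LacZ, were given tamoxifen at 3 to 6 months and were taken at 9 to 13 months. Thus 36 arrays came from transgene carriers and 12, 9 of WT and 3 of FXR, did not. The labels do not say which FXR allele was used, give no sex, and do not state that the 3 samples of a group came from separate animals, so p-values measure the spread between these samples.

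Collagens are triple helices that give tissue its tensile strength. Fibrillar collagens, made mostly by fibroblasts, form the cables of the stroma, with fibril-associated collagens on their surface. Type IV collagen forms the sheet of the basement membrane under epithelia and around vessels and smooth muscle cells, type VI links that sheet to the stroma, and types VII and XVII anchor squamous epithelium to it.

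Il1b, the mouse gene of the transgenic cytokine, lay between 3.71 and 6.27 (log2 signal) in the 12 non-carrier arrays and between 5.32 and 9.63 in the 36 carrier arrays. The ranges overlapped, so this probe set does not settle the carrier label of a single array. Nr1h4, which encodes FXR, averaged 4.93 in the FXR group and 4.52 in WT mice of the same facility, so its probe set does not check that label. The junction tissue carried both linings, with mean signals of gastric markers between 11.3 and 12.7 and of squamous suprabasal markers between 6.47 and 10.6 over the arrays. Arrays 2 and 3 of the pl2 chow group at MRI stood apart from array 1: their endothelial marker means were 4.99 and 5.13 against 6.31, and their smooth muscle means 7.08 and 7.32 against 9.08. Of the 48 arrays, 10 had a liver or intestinal marker mean above 8, and array 3 of that group was 1 of them. The main collagen results that rest on arrays 2 and 3 are followed by their values without them. That group is then a single array, assumed to vary like the other groups, so calls can be lost from the lower number of arrays alone.

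Promoter windows from RefSeq (GRCm38.p6, from 250 bases before to 50 after a gene's start) were given for 35 of the 44 genes. Those shown belong to the genes on which the results below turn: Col4a1 and Col4a2, a head-to-head pair whose starts lie 21 bases apart on opposite strands and whose levels moved together, Col15a1, which separated carriers from non-carriers best of the collagens, and Col17a1, the collagen that differed most in the FXR line. Capitals mark 3 core promoter motifs, the TATA box as TATAAA, the CCAAT box and the GC box as GGGCGG, each searched on both strands, so that a match on the opposite strand appears as its reverse complement. They lie at chr8:11312777-11313076 (minus strand), chr8:11312555-11312854 (plus), chr4:47207762-47208061 (plus) and chr19:47691993-47692292 (minus), in that order.
Col4a1: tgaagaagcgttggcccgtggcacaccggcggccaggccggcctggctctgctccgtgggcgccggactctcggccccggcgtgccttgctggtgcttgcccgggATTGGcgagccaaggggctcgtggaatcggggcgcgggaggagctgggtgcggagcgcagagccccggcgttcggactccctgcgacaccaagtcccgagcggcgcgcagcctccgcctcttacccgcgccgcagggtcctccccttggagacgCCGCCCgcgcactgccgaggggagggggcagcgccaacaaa
Col4a2: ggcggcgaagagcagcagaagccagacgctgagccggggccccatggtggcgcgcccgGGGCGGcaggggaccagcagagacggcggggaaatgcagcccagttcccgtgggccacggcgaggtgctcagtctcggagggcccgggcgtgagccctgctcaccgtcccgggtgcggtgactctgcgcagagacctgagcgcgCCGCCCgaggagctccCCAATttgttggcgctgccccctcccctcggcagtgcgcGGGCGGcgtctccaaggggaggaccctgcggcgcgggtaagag
Col15a1: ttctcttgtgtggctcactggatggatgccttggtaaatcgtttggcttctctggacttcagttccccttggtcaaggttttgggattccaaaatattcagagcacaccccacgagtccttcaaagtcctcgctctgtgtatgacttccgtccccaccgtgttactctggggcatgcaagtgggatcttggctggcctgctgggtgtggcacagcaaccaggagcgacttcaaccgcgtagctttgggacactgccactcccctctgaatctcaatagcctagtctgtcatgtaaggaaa
Col17a1: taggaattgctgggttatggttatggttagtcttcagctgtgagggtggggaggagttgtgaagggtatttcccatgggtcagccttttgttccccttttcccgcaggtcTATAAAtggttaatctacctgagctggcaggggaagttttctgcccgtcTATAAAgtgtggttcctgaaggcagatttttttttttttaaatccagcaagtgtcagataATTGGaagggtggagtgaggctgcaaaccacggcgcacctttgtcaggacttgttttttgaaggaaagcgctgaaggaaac
The Col4a1 and Col4a2 windows share 78 bases. The Col17a1 window holds TATAAA at 2 places and the Col15a1 window none of the 3 motifs, and no window holding a motif shows that a factor binds there. Of all 32851 windows 13.6% held TATAAA, 37.4% CCAAT and 35.7% GGGCGG on either strand, against 5, 12 and 22 of the 35 collagen windows.

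Across the 16 groups the collagens did not share 1 pattern. WT mice on chow at MRI were the highest group for 17 of the 35 tested genes, and pl2 mice on chow at MRI the lowest for 14. How often this held over all genes was not counted, so it cannot be read as particular to collagens. The 17 genes highest in WT at MRI included Col1a1, Col1a2, Col3a1, Col5a1, Col4a1, Col4a2, Col4a5, Col4a6, Col6a1, Col6a2, Col6a3 and Col15a1. Other genes of the same types, Col5a2, Col5a3, Col4a3, Col6a4 and Col6a5, were highest in other groups. Col7a1, Col17a1 and Col18a1 followed other orders. No probe set was compared with another gene's, because array signals are not scaled between probe sets.

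**Figure D1:**
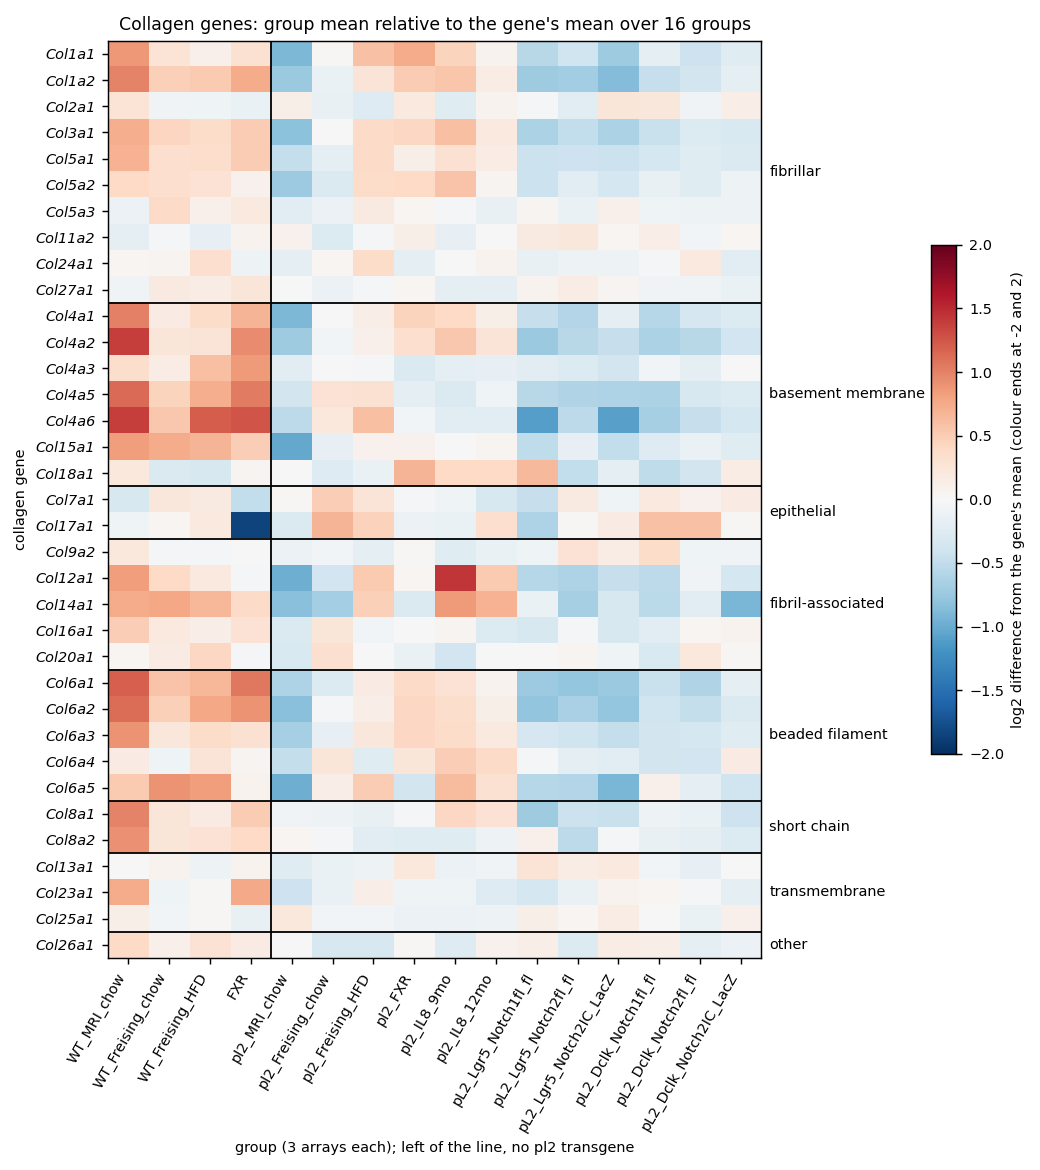
Mean log2 signal of each of the 35 tested collagen genes in each of the 16 groups of 3 arrays, minus that gene's mean over the groups, with genes ordered by type. The 4 groups to the left of the line lack the transgene. WT_MRI_chow is the highest group for 17 genes and pl2_MRI_chow the lowest for 14, which was not counted over all genes.

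The effect of the transgene was read from chow-fed pl2 and WT mice, as the average of its difference at MRI and its difference at Freising. The collagen genes were lower: of 35 tested, 20 fell and 0 rose (adjusted p below 0.05, limma with Benjamini-Hochberg adjustment over all genes tested), where 12.9% of all tested genes fell and 9.05% rose. The median difference of the 35 was -0.60 (log2), against -0.01 for all genes. By type, 5 of 10 fibrillar, 5 of 7 basement membrane, 4 of 5 type VI, 2 of 5 fibril-associated and 2 of 2 short chain genes fell, as did 1 of 3 transmembrane genes (Col23a1) and Col26a1, and neither of the 2 epithelial collagens. These counts use all arrays, and at Freising alone 1 of the 35, Col15a1, fell. Without arrays 2 and 3 of pl2 at MRI, the mean difference of Col6a3 went from -0.986 to -0.579. That of Col6a5 went from -1.14 to -0.871, and that of Col26a1 from -0.404 to -0.515. Those of Col8a1, Col8a2 and Col23a1 went from -0.7, -0.589 and -0.599 to -0.669, -0.473 and -0.374. Col8a2, 1 of the short chain genes, was at most 3.75 in carrier arrays, below the lowest array median of 4.03. It passed the filter only through non-carrier arrays, so its call follows in part from the filter. In bulk tissue, fewer cells of a type and less RNA per cell cannot be told apart.

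Col15a1, a collagen of the basement membrane zone of vessels and muscle, gave the clearest difference. At MRI its log2 signal was 6.03, 5.87 and 6.57 in WT arrays and 5.11, 3.94 and 3.85 in pl2 arrays. At Freising it was 5.81, 6.27 and 6.08 in WT and 5.15, 5.19 and 5.13 in pl2. No pl2 value reached a WT value in either facility. Averaged over the facilities, Col15a1 fell by 1.38 ± 0.15 (SE, log2), a 2.60-fold difference (limma, adjusted p = 4.66e-07), and without arrays 2 and 3 of pl2 at MRI by 0.97 ± 0.15 (adjusted p = 0.000364).

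The chains of type IV collagen at the Col4a1 and Col4a2 pair, which form its commonest trimer, were 2.05-fold and 2.29-fold lower in the mean of both facilities. Col4a2 read 8.04, 7.46 and 7.47 in WT and 6.29, 5.26 and 5.16 in pl2 mice at MRI, and 6.35, 6.70 and 6.52 in WT and 6.76, 6.04 and 5.87 in pl2 mice at Freising. The groups were apart at MRI, but at Freising pl2 array 1 lay above every WT array. Averaged, Col4a2 fell by 1.20 ± 0.20 (adjusted p = 9.7e-05) and Col4a1 by 1.03 ± 0.20 (adjusted p = 0.000506, both limma). Col4a5 and Col4a6, neighbouring X-linked chains of the type IV network found round smooth muscle, fell by 0.83 ± 0.23 and 1.12 ± 0.34. Xist, which is expressed from the inactive X chromosome of females, averaged 10.8 in WT and 6.97 in pl2 mice at MRI, and the labels give no sex. Col18a1, from which endostatin is cut, did not pass (-0.10 ± 0.22). Without arrays 2 and 3 of pl2 at MRI, Col4a2 was still called (-0.83 ± 0.23, adjusted p = 0.0241, limma). The calls of Col4a1 (-0.47 ± 0.19, adjusted p = 0.111), Col4a5 (-0.57 ± 0.28) and Col4a6 (-0.51 ± 0.38) were lost.

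Among fibrillar genes, Col1a1, the main chain of type I collagen, read 9.21, 8.91 and 9.14 in WT and 8.24, 7.0 and 6.72 in pl2 mice at MRI. Its values at Freising were 8.40, 8.37 and 8.70 in WT and 8.64, 8.11 and 7.98 in pl2, and these overlapped. Averaged over both, Col1a1 fell by 1.01 ± 0.23 (limma, adjusted p = 0.00207). The partner chain Col1a2 fell by 1.17 ± 0.21, Col3a1, abundant in distensible stroma and vessel walls, by 0.98 ± 0.19, and the fibril starters Col5a1 and Col5a2 by 0.85 ± 0.14 and 0.88 ± 0.17. At Freising alone the differences were -0.25 ± 0.33 for Col1a1 and -0.61 ± 0.29 for Col1a2, and neither passed. Without arrays 2 and 3 of pl2 at MRI the mean differences of Col1a2 (-0.80 ± 0.23) and Col5a1 (-0.56 ± 0.16) were still called by limma, at adjusted p = 0.0328 and 0.0291. Those of Col1a1 (-0.55 ± 0.26, adjusted p = 0.173), Col3a1 (-0.56 ± 0.20, adjusted p = 0.0698) and Col5a2 (-0.41 ± 0.16, adjusted p = 0.0898) were not.

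The largest decreases by size outside these were Col14a1, a fibril-associated collagen (-1.52 ± 0.35), Col6a1 (-1.33 ± 0.23), Col12a1, another fibril-associated collagen (-1.30 ± 0.27) and Col6a2 (-1.23 ± 0.21), each called by limma. Without arrays 2 and 3 of pl2 at MRI, Col6a1 (-0.84 ± 0.24) and Col6a2 (-0.77 ± 0.22) were still called, and Col14a1 (-1.29 ± 0.44, adjusted p = 0.0609) and Col12a1 (-0.87 ± 0.31, adjusted p = 0.0725) were not. Col7a1, which makes the anchoring fibrils under squamous epithelium, was 0.31 ± 0.18 and Col17a1, the hemidesmosome collagen, 0.22 ± 0.29 higher, and neither passed the test. Markers of other cells moved beside the collagens, but not all in the same direction. Of 12 squamous suprabasal markers 4 rose and 0 fell (median 0.003). Of 7 squamous basal markers 2 rose and 1 fell (median 0.34), and 0 of 10 gastric markers were called. Of 11 tested fibroblast markers that are no collagens 10 fell, and the median of the 11 was -1.22. In the same test 11 of 11 smooth muscle markers (median -2.03), 9 of 10 endothelial (-1.07), 7 of 8 macrophage (-0.72) and 6 of 10 skeletal muscle markers (-1.27) fell, and without arrays 2 and 3 of pl2 at MRI 8 of 11 fibroblast, 1 of 11 smooth muscle, 3 of 10 endothelial, 0 of 8 macrophage and 1 of 10 skeletal muscle markers did. The smooth muscle marker mean lay between 9.14 and 10.7 in non-carrier arrays and between 6.08 and 10.2 in carriers, and the endothelial mean between 6.45 and 7.20 and between 4.99 and 7.18. With squamous suprabasal and smooth muscle marker means as covariates 1 collagen was called, Col15a1, and 436 of all 15242 genes, against 3341 without covariates. With endothelial and fibroblast marker means 0 collagens and 13 of all genes were called, so calls were lost over all genes as well. The part of these cells in the decrease was not tested further.

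**Figure D2:**
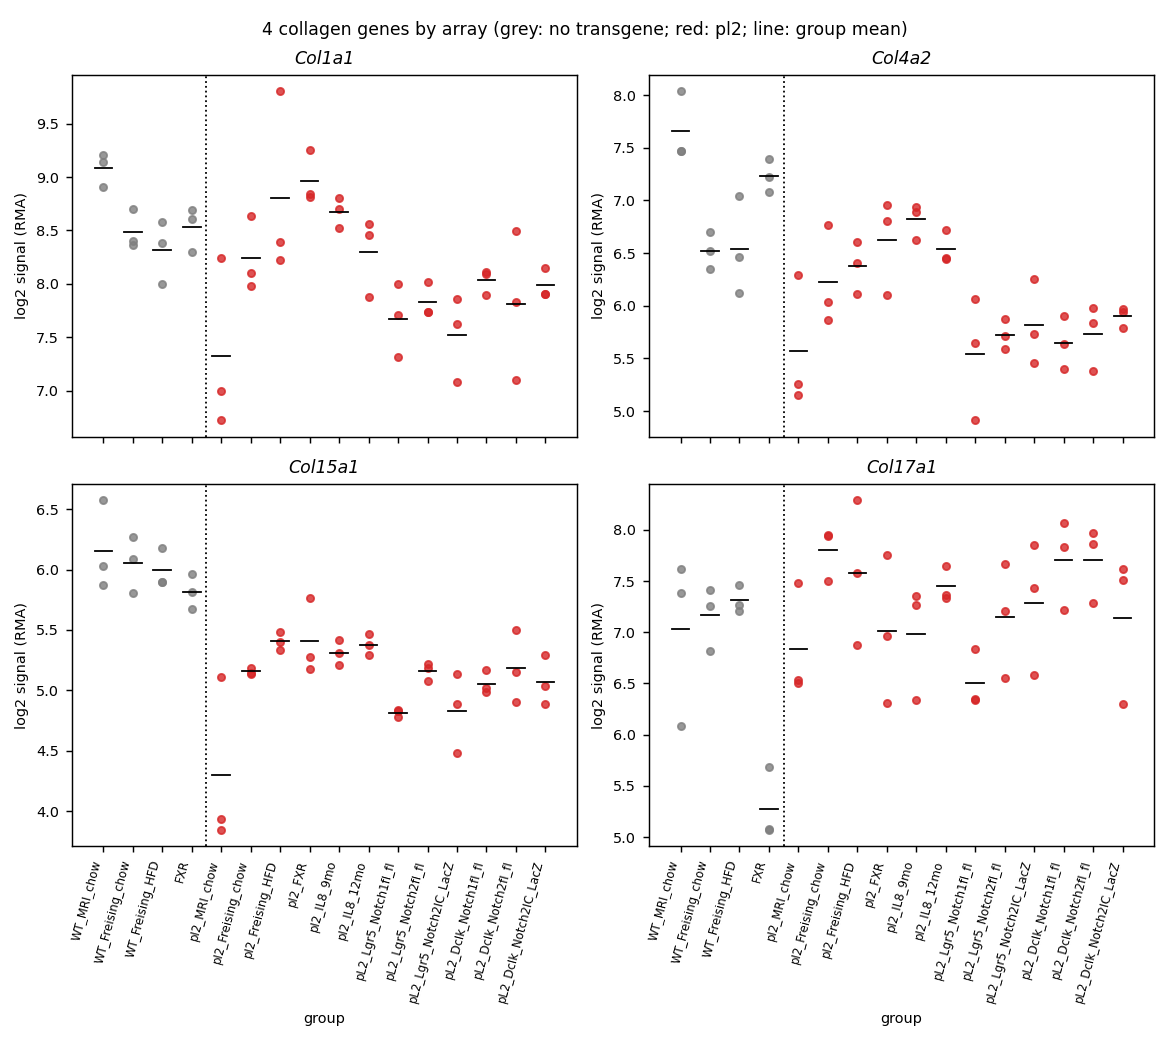
Log2 signal of Col1a1, Col4a2, Col15a1 and Col17a1 in each of the 48 arrays by group, with group means as lines, grey without and red with the transgene. Col15a1 separates all but 1 carrier array from every non-carrier array, Col1a1 and Col4a2 overlap between them, and Col17a1 is lowest in the 3 FXR arrays.

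Each facility was then taken alone. At MRI 20 of 35 collagens fell and 0 rose (12.8% of all genes fell and 10.3% rose), and 22 of 35 lay entirely below WT, where 19.7% of all genes did. At Freising on chow, 1 fell and 0 rose (0.912% of all genes fell and 0.728% rose), and 5 lay entirely below WT, against 13.6% of all genes. The gene that fell at Freising was Col15a1, by 0.90 ± 0.21 (limma, adjusted p = 0.0206). It was called in 2 of 6 fits that each left out 1 array, and the count was 0 without array 2 or 3 of either genotype and 2 without array 1 of either. Over all genes 382 were called without array 1 of pl2 and 183 without array 1 of WT, against 250 with all arrays. On the high fat diet at Freising no collagen passed, where 1.16% of all genes were called by limma. At an unadjusted p below 0.05 there were 5 of the 35, against 14.9% of all genes. Of the 20 called at MRI, 19 had a negative difference on chow at Freising, 14 on the high fat diet and 16 when the transgene was compared within the FXR background. Of all 1944 genes lower at MRI, 81.7%, 85.6% and 91.5% had a negative difference in these comparisons.

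Whether the facilities differed was tested by subtracting the transgene difference at MRI from that at Freising. Col4a1 (1.75 ± 0.41, adjusted p = 0.0304) and Col4a2 (1.79 ± 0.40, adjusted p = 0.024, limma) passed, and 0.892% of all genes were higher and 0.866% lower by this test. Col1a1 did not pass (1.52 ± 0.47), nor did Col15a1 (0.96 ± 0.30), so 2 of 35 collagens were called. In the same test 2 of 10 endothelial markers were higher (median of the 10, 1.09), and the smooth muscle median was 1.25 with 0 of 11 called. Xist, which is expressed from the inactive X chromosome of females, averaged 10.8 in WT and 6.97 in pl2 at MRI and 4.03 and 4.98 at Freising, and with Xist as covariate neither collagen was called. These calls rest on single arrays. Over all genes 268 were called with all arrays, and 990 without array 1 of pl2 at MRI. Without array 2 of pl2 or array 3 of WT at Freising 422 and 106 were called. Without array 2 or 3 of pl2 at MRI, array 1 of WT at MRI, array 1 of pl2 at Freising or array 2 of WT at Freising, 0 collagens were called, without array 1 of pl2 at MRI 15 were, without array 2 of pl2 at Freising 4, without array 3 of WT at Freising 1, and without both arrays 2 and 3 of pl2 at MRI 0, when the differences were 0.63 ± 0.38 for Col4a1 and 1.07 ± 0.46 for Col4a2. On leaving out these arrays the count for the transgene at MRI went from 20 to 1 (Col15a1, -1.05 ± 0.24), and for the mean from 20 to 6, with the pl2 group at MRI then 1 array. Over all genes the calls went from 3512 to 152 at MRI and from 3341 to 1229 in the mean.

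Col4a6 shows how 1 array moved the Freising values. Array 1 of pl2 chow there had 7.04, against 3.94 and 5.06 in its companions, and WT arrays had 5.35, 5.57 and 6.10. The same array had a smooth muscle marker mean of 10.2, against 7.09 and 7.73. Over the 48 arrays Col4a6 ran from 3.51 to 7.04, and the plot of Col4a6 against smooth muscle markers shows both high in the same arrays.

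**Figure D3:**
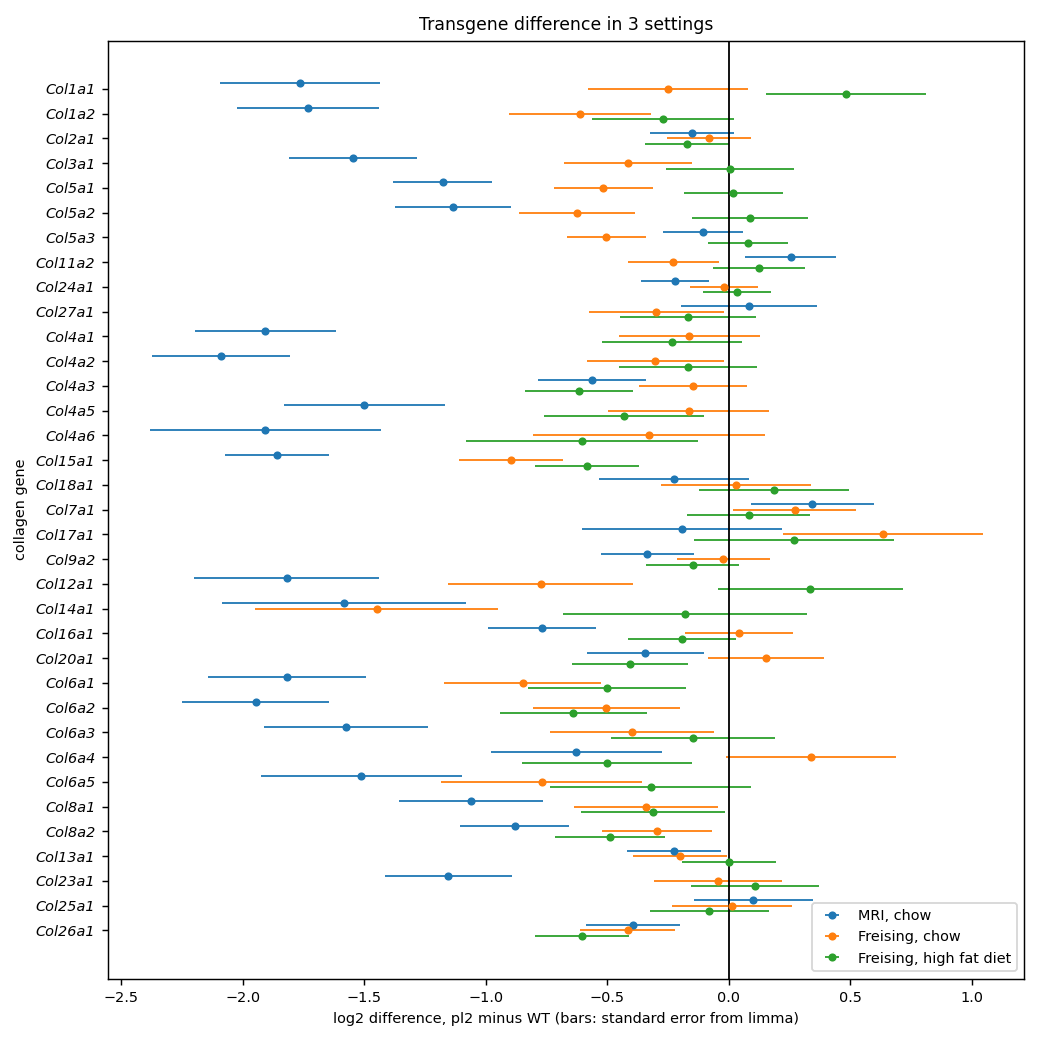
Log2 difference of pl2 minus WT (point) with its standard error from limma (bar) for each tested collagen, within MRI on chow, Freising on chow and Freising on high fat diet. The MRI difference is the more negative of the chow pair for 29 of 35 genes, and the share over all genes is not given.

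Taking each array singly, Col15a1 ranged from 5.67 to 6.57 in the 12 non-carriers and from 3.85 to 5.76 in the 36 carriers. In 35 of 36 carriers it lay below every non-carrier, and the exception was array 3 of pl2_FXR at 5.76. Only 35 of 15242 genes (0.230%) had as many carriers below every non-carrier. This measure was chosen after values were seen, so no test is attached. Col4a5 did so in 34 of 36 carriers, Col6a1 in 30, Col6a2 in 29 and Col4a6 in 28. The median over the 35 collagens was 13 carriers and over all genes 2.

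The interleukin-8 line was compared with pl2 at MRI, both at 12 months. The letter codes in their sample titles differ (CM against AN), and their meaning is not given. Of the 35 collagens 3 rose and 0 fell, where 1.37% of all genes rose and 0.453% fell. Col12a1 read 6.84, 7.25 and 7.24 in pl2_IL8 and 6.46, 5.40 and 4.95 in pl2, so every pl2_IL8 value was higher. It rose by 1.51 ± 0.38 (limma, adjusted p = 0.0329). Col15a1 read 5.29, 5.38 and 5.47 against 5.11, 3.94 and 3.85 and rose by 1.08 ± 0.21 (adjusted p = 0.00572, limma). Col3a1 rose by 1.02 ± 0.26, although 1 pl2 array at 7.17 lay within the pl2_IL8 values of 6.97, 7.59 and 7.46. The epithelial pair was not called, with Col17a1 at 0.61 ± 0.41 and Col7a1 at -0.34 ± 0.25. The count was 0 without array 2 or without array 3 of pl2, 13 without array 1, and 0 without both arrays 2 and 3. Without both, Col12a1 was 0.65 ± 0.51, Col15a1 0.27 ± 0.24 and Col3a1 0.18 ± 0.32 above the single pl2 array left. The count was 1 without array 2 or 3 of pl2_IL8 and 2 without its array 1. Over all genes 278 were called with all arrays, and 619, 23 and 92 without arrays 1, 2 and 3 of pl2. Markers of other cells moved in the same comparison: 9 of 10 endothelial markers rose (median 1.44), 2 of 11 fibroblast markers rose (median 0.86) and 2 of 5 mesothelial markers fell (median -1.42). Their part in the collagen differences was not tested beyond the fit with endothelial and fibroblast marker means as covariates, which called 0 collagens and 0 of all genes. Between 12 and 9 months within the line no collagen was called, nor was any gene, by limma (2 collagens and 7.77% of all genes had an unadjusted p below 0.05).

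In the FXR line without the transgene, compared with WT at MRI, 1 collagen fell and 0 rose (1.37% of all genes fell and 0.748% rose). Col17a1, the hemidesmosome collagen, read 5.08, 5.07 and 5.69 in FXR and 7.38, 6.09 and 7.62 in WT, with no overlap. It fell by 1.75 ± 0.41, a 3.37-fold difference (limma, adjusted p = 0.02). Col7a1, the other epithelial collagen, did not pass (-0.16 ± 0.25). Squamous markers were low in the same 3 arrays: the suprabasal mean was 6.47, 7.41 and 7.60 against 8.89, 9.13 and 9.76 in WT, and 5 of 12 suprabasal markers fell (median -1.98). Of 7 basal markers 3 fell, and the median difference of the 7 was 0.075: Krt14, Krt15 and Trp63 averaged 8.37, 5.35 and 5.37 in FXR and 10.4, 7.85 and 7.33 in WT, while Itga6 averaged 9.32 in FXR and 9.15 in WT, and Itgb4, Dst and Lamb3 were also slightly higher in FXR. Of 10 skeletal muscle markers 7 fell (median -1.90). Adjusted for squamous suprabasal and smooth muscle marker means, Col17a1 was not called, and it was called in 2 of 6 fits that each left out 1 array (without WT array 2 and without FXR array 3).

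**Figure D4:**
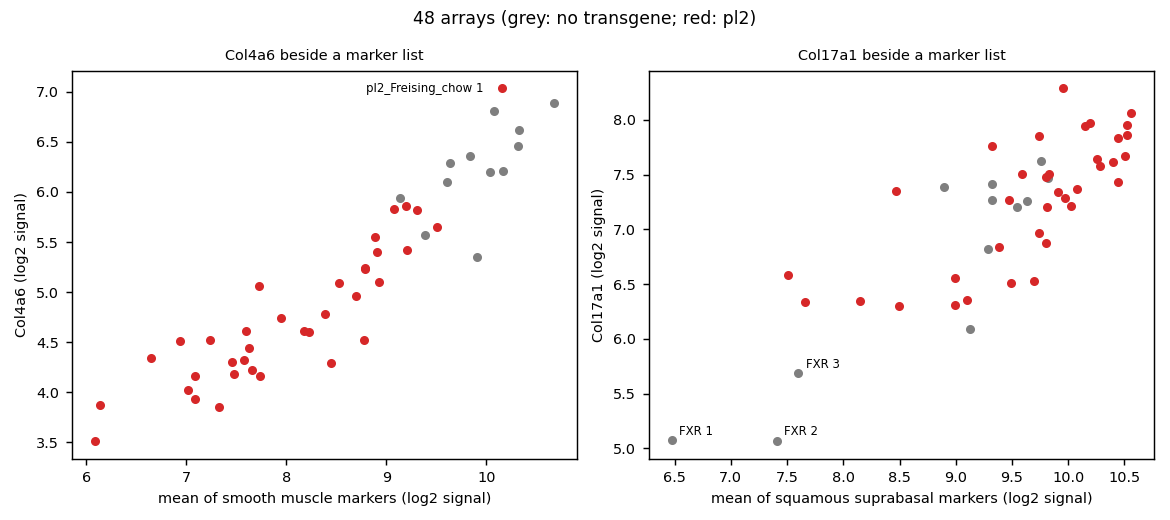
Left, log2 signal of Col4a6 against the mean of smooth muscle markers, and right, of Col17a1 against the mean of squamous suprabasal markers, 1 point per array for 48 arrays, grey without and red with the transgene. The 3 FXR arrays lie lowest in Col17a1 at 5.08, 5.07 and 5.69, and array 1 of pl2 at Freising is the highest in Col4a6 at 7.04.

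With the transgene in that background (pl2_FXR against FXR), 1 collagen rose and 3 fell, where 5.15% of all genes rose and 5.00% fell. Col17a1 read 6.31, 6.96 and 7.76 in pl2_FXR and rose by 1.73 ± 0.41 (limma, adjusted p = 0.00552). Both this rise and the fall of Col17a1 in FXR against WT use the same 3 FXR arrays. Its mean was 7.01 in pl2_FXR, 7.03 in WT at MRI and 6.84 in pl2 at MRI. Col4a3 fell by 1.13 ± 0.22 (adjusted p = 0.000882), from 5.21, 4.66 and 5.27 to 3.82, 4.30 and 3.64, and Col4a5 by 1.24 ± 0.33. The transmembrane Col23a1 fell by 0.86 ± 0.26. Of 6 fits that each left out 1 array, Col4a3 was called in 6, Col17a1 in 5 (not without pl2_FXR array 3), Col4a5 in 3 and Col23a1 in 2. In the same comparison 5 of 12 squamous suprabasal markers rose (median 1.08), 2 of 7 basal markers rose and 1 fell, and 3 of 11 fibroblast and 3 of 3 glial markers fell. With squamous suprabasal and smooth muscle marker means as covariates no collagen was called, and 552 of all genes were, against 1547 without covariates.

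Adding the FXR change to pl2 (pl2_FXR against pl2 at MRI), 4 collagens rose and 0 fell, among 13 genes called in all (0.0853%). Col1a1 read 9.25, 8.84 and 8.81 in pl2_FXR, above every pl2 value, and rose by 1.65 ± 0.33, a 3.13-fold difference (limma, adjusted p = 0.0268). Col15a1 rose by 1.11 ± 0.21, Col3a1 by 1.23 ± 0.26 and Col5a2 by 1.12 ± 0.24, all called by limma. Xist averaged 11.4 in pl2_FXR and 6.97 in pl2 at MRI, and with Xist as covariate no collagen was called. The comparison shares its pl2 arrays with that for interleukin-8. In it 3 of 10 endothelial markers rose (median 1.23) and 1 of 11 fibroblast markers rose (median 0.69), while the smooth muscle median was 1.33 with 0 of 11 called, and the part of these cells was not tested further. The calls ended on leaving out array 2 or array 3 of either group, when 0 of 15242 genes were called. The count was 1 collagen without pl2_FXR array 1 and 11 without pl2 array 1. Over all genes 4 and 223 were called in these fits, against 13 with all arrays. Against the single array left without arrays 2 and 3 of pl2, the differences were 0.73 ± 0.42 for Col1a1, 0.30 ± 0.24 for Col15a1, 0.39 ± 0.32 for Col3a1 and 0.18 ± 0.26 for Col5a2. The test of whether the transgene difference differed between the FXR and WT backgrounds called Col1a1 (2.20 ± 0.47, adjusted p = 0.0478) and Col15a1 (1.45 ± 0.30, adjusted p = 0.0478) by limma, where 0.0919% of all genes were higher and 0.0459% lower. Over all genes it called 21 with all arrays and 252 without array 1 of pl2. Col1a1 was called in 2 and Col15a1 in 5 of 12 fits that each left out 1 array, the count running from 0 to 13 (without array 1 of pl2), and 0 were called without arrays 2 and 3 of pl2 at MRI (1.28 ± 0.52 for Col1a1 and 0.64 ± 0.29 for Col15a1).

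**Figure D5:**
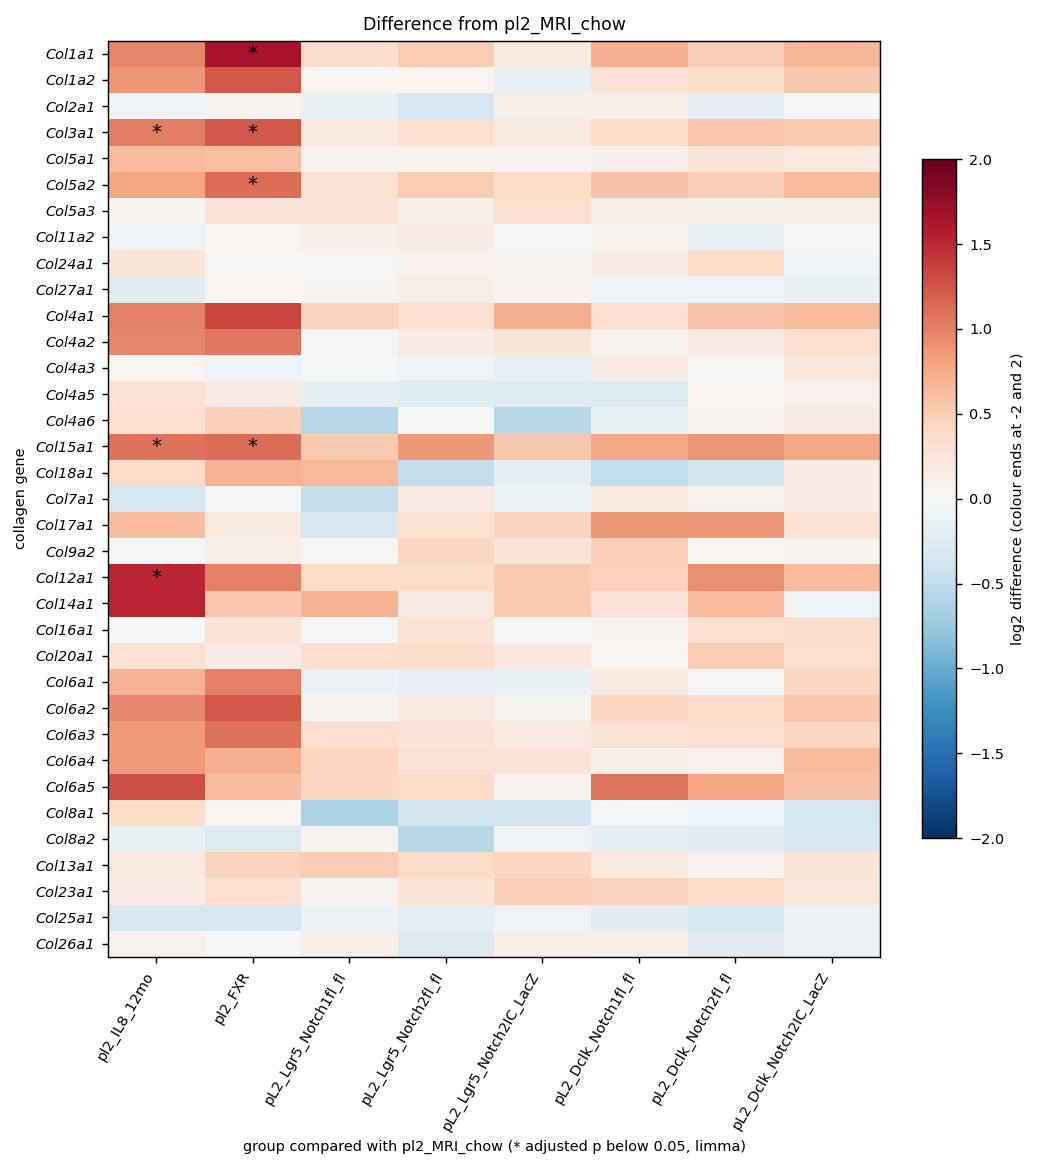
Log2 difference of each tested collagen from pl2_MRI_chow in the 8 groups compared with it (stars, adjusted p below 0.05, limma). The 8 comparisons share the 3 pl2 arrays, and stars appear for pl2_IL8_12mo and pl2_FXR.

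In the 6 Notch lines no collagen was called against pl2 at MRI by limma. The shares of all genes called were 0.144%, 0.0525% and 0.138% for Lgr5 with Notch1fl_fl, Notch2fl_fl and Notch2IC_LacZ, and 0, 0.256% and 0.0197% for Dclk with the same alleles. At an unadjusted p below 0.05 there were 4, 4 and 3 collagens with Lgr5 and 6, 7 and 3 with Dclk, against 14.5%, 9.09%, 12.4%, 10.4%, 13.0% and 6.67% of all genes. With array quality weights the counts of called collagens were 0, 3 and 2 with Lgr5 and 8, 13 and 5 with Dclk, and without array 1 of pl2 they were 2, 2 and 3 and 2, 4 and 3. Without array 1 of pl2, 107, 56 and 113 of all genes were called with Lgr5 and 83, 240 and 44 with Dclk. Age and tamoxifen differ between these groups and the control. So do the letter codes in the sample titles (TH against AN), whose meaning is not given. Col15a1 came nearest, at 0.89 ± 0.21 (adjusted p = 0.0619) in Dclk with Notch2fl_fl, and was above 0 in all 6 lines. Between 23 and 27 of the 35 were above 0 in each line, with 3 shared control arrays, and the share over all genes is not given. Col17a1 read 7.21, 7.83 and 8.06 in Dclk with Notch1fl_fl and 6.35, 6.83 and 6.34 in Lgr5 with Notch1fl_fl. Across the drivers it was 0.54 ± 0.24 higher with Dclk, which did not pass (limma, adjusted p = 0.259), and no collagen did, where 0.945% of all genes were called (4 collagens and 15.4% of all genes at an unadjusted p below 0.05). Of the 10 arrays with high liver or intestinal markers, 6 were in Notch lines. Activated against floxed Notch2 gave 0 collagens with the Lgr5 driver (0.0722% of all genes) and with Dclk (0.0328%), and floxed Notch1 against floxed Notch2 gave 0 (0.0722%). At an unadjusted p below 0.05 these gave 3, 1 and 3 collagens, against 7.11%, 5.20% and 8.34% of all genes.

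For the high fat diet no collagen was called in either genotype by limma. In pl2 mice 0 of all genes were called, 872 (5.72%) had an unadjusted p below 0.05, and 5 of these were collagens: Col5a1 (0.56 ± 0.20), Col5a2 (0.66 ± 0.24), Col24a1 (0.33 ± 0.14), Col12a1 (0.91 ± 0.38) and Col14a1 (1.16 ± 0.50). Col5a2 read 5.31, 4.86 and 4.82 on chow and 5.55, 5.87 and 5.53 on high fat diet, with no overlap, as for 6 collagens in that direction and 6.73% of all genes. In WT 0.164% of genes were called, none a collagen, with 1 collagen and 4.33% of all genes at an unadjusted p below 0.05. The difference between genotypes called 0.0197% of genes and no collagen, with 3 collagens and 5.81% of all genes at an unadjusted p below 0.05. Array 2 of pl2 on high fat diet had the highest Col1a1 of the series, 9.80, against 8.39 and 8.22.

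The enzymes and receptors of collagens followed in part. Of 24 tested genes for collagen synthesis and processing, 9 fell and 0 rose with the transgene in the mean of facilities (median -0.39, all genes -0.01), where 12.9% of all genes fell and 9.05% rose. Serpinh1, the chaperone of the triple helix, fell by 1.47 ± 0.19 (limma, adjusted p = 5.23e-06), Plod2, a lysyl hydroxylase, by 1.18 ± 0.32, Pcolce, which aids removal of the end of procollagen, by 1.01 ± 0.15, and P3h3, a prolyl hydroxylase, by 0.99 ± 0.22. At Freising alone 2 of 24 fell, P4ha2 (-0.82 ± 0.20) and Pcolce (-0.95 ± 0.22), where 0.912% of all genes fell. Of 9 tested collagen receptors 2 rose and 5 fell, against the same 9.05% and 12.9% of all genes. The integrin gene Itga2, the epithelial collagen receptor chain, rose by 1.55 ± 0.32 and Ddr1, the discoidin receptor of epithelia, by 0.27 ± 0.09, while Ddr2, its stromal counterpart, fell by 1.57 ± 0.30, Itga1 by 1.26 ± 0.23 and Itga11, the fibroblast integrin, by 0.90 ± 0.13. Itga11 rose by 0.78 ± 0.19 in pl2_IL8 against pl2 and fell by 0.77 ± 0.19 in pl2_FXR against FXR, where Itga2 rose by 2.65 ± 0.46. Without arrays 2 and 3 of pl2 at MRI, 4 of the 24 synthesis genes fell in the mean of facilities, among them Serpinh1 (-0.98 ± 0.19) and Pcolce (-0.90 ± 0.19) but not Plod2 (-0.51 ± 0.35) or P3h3 (-0.76 ± 0.26). Of the receptors, 3 fell and 0 rose: Itga1 (-1.0 ± 0.28), Itga11 (-0.88 ± 0.17) and Itgb1 (-0.56 ± 0.17) were called, and Itga2 (1.14 ± 0.39), Ddr1 (0.25 ± 0.12) and Ddr2 (-0.85 ± 0.30) were not. The Itga11 difference in pl2_IL8 was then 0.75 ± 0.27 and not called.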

How the data were processed

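Whole junction RNA was hybridised to Affymetrix arrays, 1 per sample. Per the submitters' processing notes the deposited log2 values were made by RMA in Affymetrix Expression Console; version and genome build are not given in the sources used here. Of 34390 probe sets, 23521 with a single gene symbol were used, leaving out 1814 with several and 9055 with none. The brightest probe set per symbol was kept, and 15242 of 22180 genes, those that exceeded their array's median signal in 3 or more arrays, entered the tests. The 48 array medians lay between 4.03 and 4.27. One limma 3.58.1 fit (R 4.3.3) with 16 group means and 32 residual degrees of freedom gave 24 comparisons, two-sided, with Benjamini-Hochberg adjustment per comparison and a threshold of 0.05. Errors are standard errors from it. The procedure was tested on simulated data. Named were most of the called collagens (at most 8 per direction by size), part of a fixed set of 10 collagens, and some of the called genes of each pathway list. The members and lists were chosen with earlier results of these data known. The number of arrays limits the precision.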

Additional observations from a re-analysis of the deposited data

Results flagged for a closer look

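The transgene difference was larger at MRI than at Freising for Col4a1, whose Freising difference minus MRI difference was 1.75 ± 0.41 (log2, limma, adjusted p = 0.0304), and for Col4a2, at 1.79 ± 0.40 (adjusted p = 0.024, limma). It differed between the FXR and WT backgrounds for Col15a1 (1.45 ± 0.30) and Col1a1 (2.20 ± 0.47), both at an adjusted p of 0.0478 by limma. The 4 were picked out because the difference between the groups' effects passed its own test. The facility calls ended with the compared groups alone, with Xist as covariate, on leaving out the 10 arrays with a raised liver or gut marker mean and with endothelial and fibroblast covariates, and the FXR calls under each of these, with no filter on low values and with squamous and smooth muscle covariates. All 4 differences use the pl2 chow arrays at MRI, of which arrays 2 and 3 stood apart in endothelial and smooth muscle markers. The part of those markers was not tested beyond the covariate fits. The differences without arrays 2 and 3 are given with the comparisons above.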

How the results depend on the processing

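Each group had 3 arrays, and this number limits what could be called. No paired analysis was possible because the labels give no replicate numbers. Counts below are collagens called by limma at an adjusted p below 0.05, and the cause of each change was not tested. Without arrays 2 and 3 of pl2 at MRI that group was 1 array, assumed to vary like the other groups, so fewer calls follow in part from fewer arrays. The transgene count, 20 in the mean of facilities and 20 at MRI, was 1 and 8 with squamous suprabasal and smooth muscle marker means as covariates, 6 and 1 without arrays 2 and 3 of pl2 at MRI, and 0 and 0 with endothelial and fibroblast marker means as covariates. Over all 15242 genes the calls of 3341 and 3512 went to 436 and 970, 1229 and 152, and 13 and 8 under these alternatives, and to 5572 and 5574 with array quality weights. Those without arrays 2 and 3 and with endothelial and fibroblast covariates were chosen after seeing the data. With endothelial and fibroblast covariates the mean transgene difference turned to 0.50 for Col14a1, 0.029 for Col6a1, 0.28 for Col6a5 and 0.14 for Col3a1, that at MRI to 0.23 for Col4a6, and that of interleukin-8 to -0.065 for Col3a1. At Freising the count of 1 was 9 with array quality weights and 0 with either pair of covariates. With array quality weights it was also 2 for the transgene on high fat diet, 13 for the facility difference, 1 for diet in WT, 1 for diet by genotype, 15 for interleukin-8, 12 for pl2_FXR against pl2, 13 for transgene by FXR, and 3, 2, 8, 13 and 5 for Lgr5 with Notch2fl_fl and Notch2IC_LacZ and for Dclk with Notch1fl_fl, Notch2fl_fl and Notch2IC_LacZ, fits in which 192 to 2842 of all genes were called in place of 0 to 278 (diet comparisons 416 and 282 in place of 25 and 3). The facility count of 2 was 0 with the compared groups alone, with Xist as covariate, on leaving out the 10 arrays with a raised liver or gut marker mean, without arrays 2 and 3 of pl2 at MRI, and with endothelial and fibroblast covariates. The interleukin-8 count of 3 was 0 under the same alternatives except Xist, and 7 with squamous and smooth muscle covariates. The FXR count of 1 was 0 with the compared groups alone, with squamous and smooth muscle covariates and without the 10 arrays. The pl2_FXR against pl2 count of 4 was 2 with no filter, and 0 with the compared groups alone, either pair of covariates, Xist, without the 10 arrays and without arrays 2 and 3 of pl2. The pl2_FXR against FXR count of 4 was 0 with squamous and smooth muscle covariates, 1 without the 10 arrays and 2 with endothelial and fibroblast covariates. The transgene by FXR count of 2 was 4 with cyclic loess and 0 with no filter, the compared groups alone, either pair of covariates, Xist, without the 10 arrays and without arrays 2 and 3 of pl2. Leaving out 1 array at a time gave 16 to 21 for the mean transgene count, 17 to 20 at MRI, 0 to 2 at Freising, 0 to 15 for facility, 0 to 13 for interleukin-8, 0 to 1 for FXR, 0 to 11 for pl2_FXR against pl2, 1 to 5 against FXR, 0 to 13 for transgene by FXR, and, for the Notch lines against pl2, 0 to 2, 0 to 2 and 0 to 3 with Lgr5 and 0 to 2, 0 to 4 and 0 to 3 with Dclk. At the highest counts for facility, interleukin-8, pl2_FXR against pl2 and transgene by FXR, 990, 619, 223 and 252 of all genes were called. Of 38 single-gene differences, 38 kept their direction and call with cyclic loess, array weights and the mean of all probe sets, 37 with age as covariate, 34 with no filter, 30 with Xist, 25 with the compared groups alone, 21 without the 10 arrays, 13 with squamous and smooth muscle covariates and 2 with endothelial and fibroblast covariates, where 30 lost their call and 6 turned. Without arrays 2 and 3 of pl2 at MRI, which enter 32 of them, 6 kept their call and 26 lost it.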
